A study of Mus musculus with 2 samples.

Results

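RNA polymerase genes were followed in mouse primary T cells activated with anti-CD3/CD28 antibodies, with triptolide at 50 ng/ml on 1 array and without it on the other. The members were all genes whose symbol starts with Polr1, Polr2 or Polr3, together with Polrmt, Rprd1a, Rprd1b, Rpap1, Rpap2 and Rpap3. On the array 31 of 18193 named genes met this rule, with 69 of 45037 probe sets. Polr2k and Polr2l shared their probe sets with other genes in the annotation and were not analysed here. Both groups shared the stimulus and a culture of 18 h after purification. The sources used here give neither the number of animals, nor the T cell subset, nor the length of the triptolide exposure. Each group holds 1 sample, so no test was made, and all differences below describe these 2 arrays with no replicate check.

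Transcription in the nucleus is divided among polymerase I, which makes the large ribosomal RNA precursor, polymerase II, which makes messenger RNA, and polymerase III, which makes transfer RNA and other short RNAs. Each enzyme has a pair of large catalytic subunits, several subunits of its own and a set shared with the other enzymes, so each complex depends on genes of several groups. Activated T cells grow before they divide and raise the output of all these enzymes. Triptolide binds the XPB subunit of the initiation factor TFIIH, and it is known to deplete the largest polymerase II subunit as a protein. Arrays report the messenger RNA of that subunit, not the protein.

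The genes of the polymerases did not move as a block. Polr2a, which encodes the largest subunit of polymerase II and carries the C-terminal repeat domain (CTD), was 12.1-fold higher with triptolide, while the other 10 genes with Polr2 symbols had log2 ratios between -1.06 and 0.74. Rprd1a, a protein that binds the CTD, was 7.91-fold higher. Polr1a and Polr1b, the catalytic subunits of polymerase I, were 2.19-fold and 3.39-fold lower. All 9 genes with Polr3 symbols had a log2 ratio below 0 as deposited, between -1.07 and -0.02, as did 60.2% of all detected genes, and 7 of the 9 still did after both arrays were centred on their median signal, beside 53.3% of all genes.

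Promoter letters are shown for the member with the highest ratio and for the 2 members with the lowest. They are the 250 bases before the annotated start, 5′ to 3′ on the gene's strand, from the RefSeq promoter table of build GRCm38.p6. The Polr2a stretch is chr11:69758634-69758883 on the minus strand, that of Polr1b is chr2:129100746-129100995 on the plus strand and that of Rpap3 is chr15:97705823-97706072 on the minus strand. Capitals mark every match, on either strand, to the TATA box letters TATAAA, the CCAAT box letters CCAAT, the GC box letters GGGCGG, the E box letters CACGTG or the ETS factor core letters TTCCGG. These motifs may overlap each other.
Polr2a: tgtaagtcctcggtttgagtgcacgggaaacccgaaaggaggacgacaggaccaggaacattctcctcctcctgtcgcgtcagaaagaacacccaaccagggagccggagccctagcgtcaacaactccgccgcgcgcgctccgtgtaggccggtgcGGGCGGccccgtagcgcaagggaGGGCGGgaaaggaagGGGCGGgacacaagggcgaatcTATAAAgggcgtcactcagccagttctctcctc
Polr1b: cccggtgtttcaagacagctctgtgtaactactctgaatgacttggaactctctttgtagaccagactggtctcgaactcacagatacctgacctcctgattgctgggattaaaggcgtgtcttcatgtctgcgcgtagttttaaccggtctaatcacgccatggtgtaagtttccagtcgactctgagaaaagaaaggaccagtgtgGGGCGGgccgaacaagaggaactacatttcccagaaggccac
Rpap3: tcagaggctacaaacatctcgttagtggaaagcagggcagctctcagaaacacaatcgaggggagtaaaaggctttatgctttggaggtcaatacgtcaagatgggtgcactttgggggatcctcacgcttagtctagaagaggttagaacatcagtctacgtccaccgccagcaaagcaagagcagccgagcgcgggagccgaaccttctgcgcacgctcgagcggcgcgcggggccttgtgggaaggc
In Polr2a, TATAAA begins 33 bases before the start and GGGCGG begins 55, 70 and 93 bases before it. A TATAAA beginning 20 to 40 bases before the start was found in 2.50% of all 32851 promoters of the table, and in 1 of the 30 promoters used for members, that of Polr2a. Polr1b holds 1 GGGCGG, 42 bases before the start, and Rpap3 holds none of the motifs in this window. Promoters were used for 26 of the 31 members, and not for Polr2d, Polr2g, Polr3a, Polr3d and Rprd1a. Member promoters on 1 chromosome were left out, while the shares of all promoters include that chromosome. GGGCGG occurred in 16 of their 30 promoters (53.3%) against 32.7% of all promoters, and TTCCGG in 12 of 30 against 3952 of all 32851. TATAAA anywhere in the window occurred in 3 (10.0%) against 12.4%, CCAAT in 7 (23.3%) against 33.8%, and CACGTG in 2 (6.67%) against 6.02%. These are matches of letters and not sites shown to be bound.

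Values are MAS5 signals, a linear intensity per probe set (a group of short probes against 1 transcript), and each gene is given by its brightest probe set. A background floor of 118.4 was set from probe sets of chemosensory receptor genes, which T cells should lack, and signals under it were raised to it before log2 ratios (triptolide over stimulated) were taken. All 31 members were above the floor on both arrays. Of them 3 were at least 2-fold higher with triptolide (9.68%), beside 5.63% of the 10968 detected genes, and 5 were at least 2-fold lower (16.1%), beside 12.5%. After centring both arrays on their median the split was 3 higher and 3 lower, beside 7.11% and 9.90% of all genes. After quantile normalization it was 3 and 2, beside 8.12% and 8.43%. The median log2 ratio of the members was -0.29 and that of all detected genes -0.16. As counts, the members thus lay near the background in both directions, and what stands out are single genes within them. Where a gene had 2 or more measured probe sets (3733 genes), the SD between the brightest pair was 0.49 per probe set (log2). This is a guide to technical precision only, since it leaves out the variation between cultures. In such samples fewer cells of a type and less RNA per cell cannot be told apart.

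**Figure D1:**
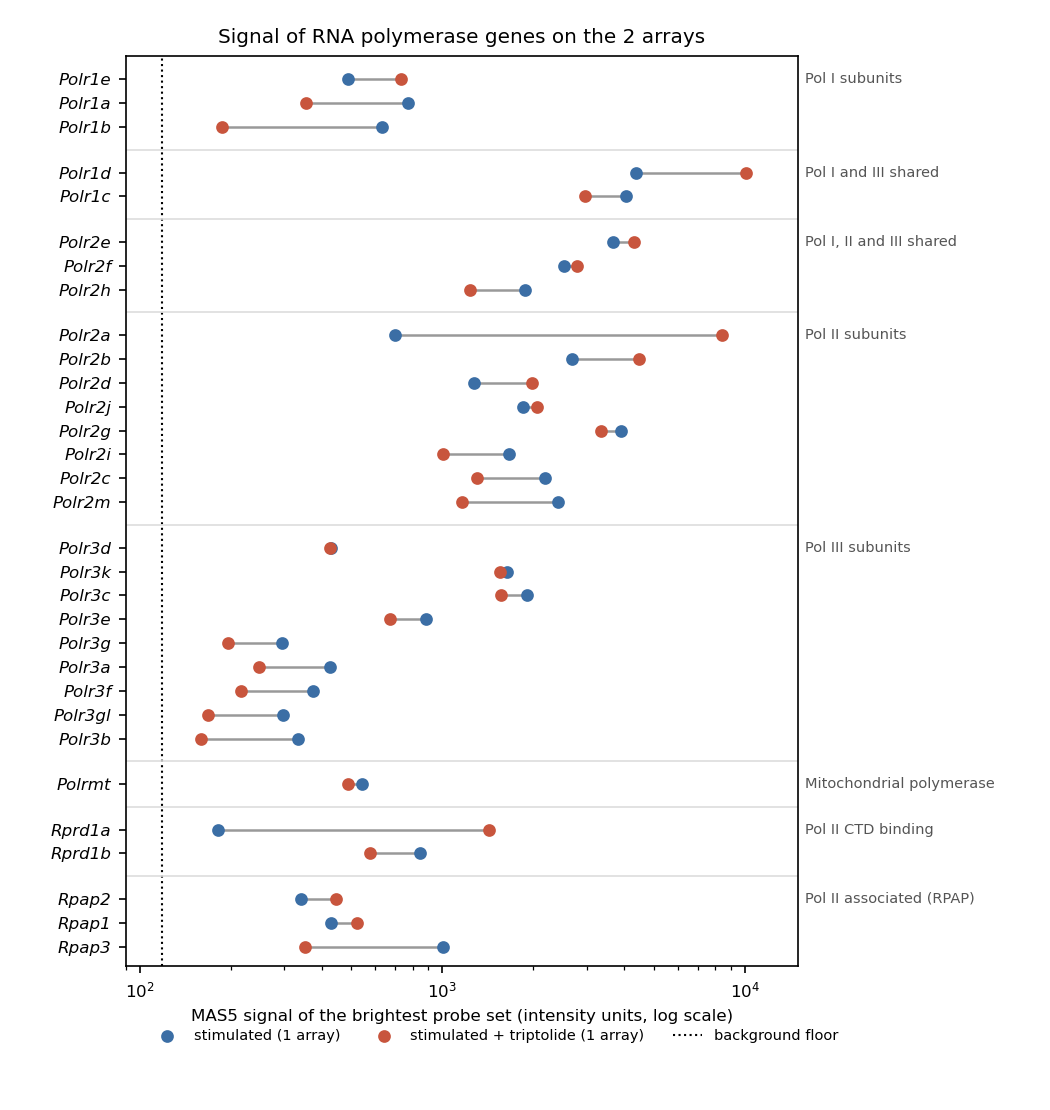
MAS5 signal of the brightest probe set of each of the 31 genes (log axis, intensity units) on the stimulated array (blue) and the triptolide array (red), joined by a line, with genes grouped by the enzyme they belong to and the floor of 118.4 dotted. Only the 2 points within a row can be compared. Polr2a runs from 697 to 8439.6 and Rprd1a from 181 to 1432, while most other rows are short.

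Among the subunits of polymerase II, Polr2a went from 697 to 8439.6 with triptolide, the second highest ratio of 8677 genes measured on both arrays. Its dimmer second probe set went the same way, from 70.9, under the floor, to 604 (at least 5.10-fold). Polr2b encodes the second largest subunit, which forms the active cleft together with the Polr2a product. Its signal was 2685 without and 4473 with triptolide (1.67-fold higher), read by a single probe set. The catalytic pair thus went the same way with very unequal ratios. The stalk of polymerase II, which contacts emerging RNA, is made by Polr2d and Polr2g. Polr2d was 1.56-fold higher (1275 to 1987), while Polr2g had a log2 ratio of -0.22 (3901 to 3359).

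The assembly platform of polymerase II is the pair of Polr2c and Polr2j. Polr2c had a log2 ratio of -0.75 (2187 to 1300.1) and Polr2j of 0.15 (1850 to 2056). Polr2i, a zinc-binding subunit that takes part in start site choice and proofreading, had a log2 ratio of -0.73 (1661 to 1005). Polr2m encodes Gdown1, which associates with polymerase II and makes it dependent on Mediator. It had signals of 2413 and 1159 and was 2.08-fold lower, the only gene with a Polr2 symbol past 2-fold in that direction. It lay within 2-fold after median centring (log2 ratio -0.93) and after quantile normalization (-0.88). Of the 8 genes for proteins of polymerase II alone, 4 lay above and 4 below 0. Each of them other than Polr2a was read by 1 probe set, so no second probe set bears on these values.

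Polr2e, Polr2f and Polr2h encode subunits found in all nuclear polymerases. Polr2e had signals of 3666 and 4315 (log2 ratio 0.24) and Polr2f of 2531 and 2782 (0.14). Polr2h was lower with triptolide, from 1870.0 to 1237 (log2 ratio -0.60). A second Polr2f probe set, close to the floor, had a log2 ratio of -0.58 (185 to 124). None of these genes was past 2-fold.

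The polymerase I genes held the lowest ratio among the members. Polr1a makes the largest and Polr1b the second largest subunit, the catalytic core of the enzyme. Polr1b went from 633 to 187 with triptolide (3.39-fold lower), and 2.26% of all detected genes had a lower ratio. Polr1a went from 773 to 353 on its brightest probe set (2.19-fold lower). It lay within 2-fold after quantile normalization (log2 ratio -0.91). The other 2 detected probe sets of Polr1a were lower as well, 1 with a log2 ratio of -0.46 (416 to 302) and 1 under the floor with triptolide (263 to 12.1, at least 2.22-fold lower). Polr1e, a subunit of the dissociable initiation module, went the other way on both of its probe sets, from 486 to 729.5 (log2 ratio 0.59) and from 466 to 614 (0.40). The catalytic pair of polymerase I was therefore lower where that of polymerase II was higher.

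Polr1c and Polr1d form the assembly platform shared by polymerases I and III. Polr1c was lower on both probe sets, with log2 ratios of -0.45 (4063 to 2964) and -0.28 (3596 to 2957). For Polr1d the 4 probe sets disagreed beyond the usual spread. Of them 3 were higher with triptolide: 4383 to 10094 (2.30-fold), 3269 to 7824 (2.39-fold) and 1440 to 3655 (2.54-fold). The remaining one was lower, from 7043 to 3310 (2.13-fold lower). Polr1d is counted among the members at least 2-fold higher through its brightest probe set, but these data give it no single direction. Whether the probe sets read different transcript variants was not tested.

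The 9 genes with Polr3 symbols had small ratios, all below 0 as deposited on their brightest probe sets. Crcp, a polymerase III subunit under another symbol, lay above 0, with a log2 ratio of 0.43 (467 to 629). Polr3a and Polr3b make the catalytic pair. Polr3b was 2.09-fold lower (334 to 159.8), and its second probe set was just under the floor with triptolide (314 to 117, at least 2.65-fold lower). With median centring, quantile normalization or a floor 2 times as high its log2 ratio was -0.94, -0.83 or -0.50, within 2-fold. Polr3a was lower on both measured probe sets, with log2 ratios of -0.78 (427 to 248) and -0.98 (429 to 217). Polr3c, Polr3f and the alternative subunits Polr3g and Polr3gl form the module that opens promoters. Polr3g and Polr3gl are paralogs of which 1 is built into each enzyme, and both were lower, from 295 to 196 (log2 ratio -0.59) and from 297 to 168 (-0.82). Polr3c had a log2 ratio of -0.29 on 1 probe set and of 0.17 on the other, and Polr3f of -0.79 on 2 probe sets and of 0.09 on another. No direction is given for these 2 genes.

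Polr3d and Polr3e make a further module that acts in initiation and termination. Polr3d had signals of 429 and 424 (log2 ratio -0.02), and Polr3e of 883 and 670.4 (-0.40). Polr3k encodes the subunit that cleaves RNA at termination. Its log2 ratio was -0.08 on the brightest of 4 measured probe sets, which ranged from -0.37 to 0.52. The 9 of 9 ratios below 0 stand beside 60.2% of all detected genes (39.8% lay above 0), and the median of the group was -0.59. The direction of Polr3d and Polr3k depended on the scaling, since 7 of 9 lay below 0 after both arrays were centred on their median signal (53.3% of all genes) and 7 of 9 after quantile normalization (49.6%). Relative to the median of all genes, 7 of 9 were lower. Only 3 of these 9 genes had a signal of at least 4 times the floor on either array, so most of this group was read close to the background.

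**Figure D2:**
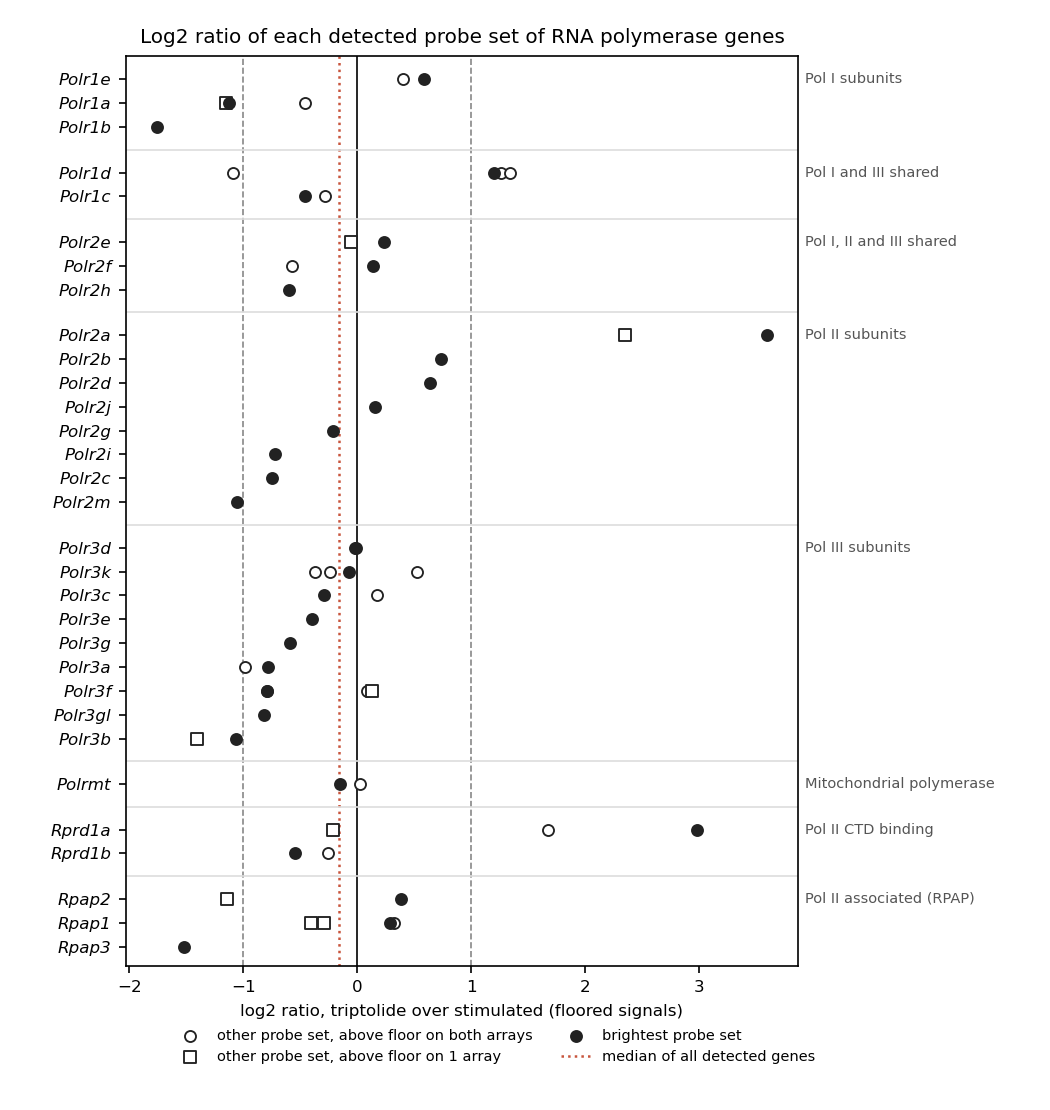
Log2 ratio, triptolide over stimulated, of each of the 59 detected probe sets, 1 row per gene, with filled circles for the brightest probe set, open circles for others above the floor on both arrays and squares for those above it on 1 array. Dashed lines mark 2-fold and the dotted line the median of all detected genes. The 4 probe sets of Polr1d lie on both sides, between -1.09 and 1.34, and the 2 of Polr2a lie at 2.35 and 3.60.

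Polrmt, the single-subunit polymerase of mitochondria, had signals of 543 and 487 (log2 ratio -0.16), close to the median of all genes. Its second probe set had a log2 ratio of 0.03. Rprd1a and Rprd1b are related proteins that bind the phosphorylated CTD and help remove its phosphates. Rprd1a went from 181 to 1432 with triptolide, the seventh highest ratio of the measured genes. A second probe set was 3.18-fold higher (159 to 507) and the last, under the floor with triptolide, was close to it on both arrays (138 to 102). Rprd1b did not follow, with log2 ratios of -0.55 (845 to 579) and -0.25 (364 to 305).

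The RPAP proteins associate with polymerase II during assembly and import. Rpap3, a cochaperone of HSP90 in the R2TP complex that assembles polymerases, was 2.86-fold lower (1005 to 351) on its single probe set, and 4.13% of detected genes had a lower ratio. Rpap1 was within 2-fold, with log2 ratios of 0.28 (429 to 522) and 0.32 (349 to 436) on its 2 measured probe sets. Its other 2 were lower with triptolide and under the floor there (157 to 95.5 and 145 to 97.6). Rpap2, a CTD phosphatase that also takes part in import, gave 2 answers. Its brightest probe set had a log2 ratio of 0.38 (339.9 to 444), and its other was under the floor with triptolide (261 to 13.5, at least 2.21-fold lower).

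Near the 2-fold line, the members just inside were Polr2m (-1.06), Polr3b (-1.07) and Polr1a (-1.13), and those just outside were Polr3gl (-0.82) and Polr3f (-0.79) below and Polr2b (0.74) above. Among the members' probe sets, 59 passed the floor on at least 1 array and 50 on both. In 14 members the 2 brightest measured probe sets could be compared, and they had the same sign in 10. Over all genes this share was 72.0%. The pairs of opposite sign were those of Polr2f, Polr3c, Polr3f and Polrmt, with a largest difference among these of 0.88 (log2). The pair of Rprd1a had the same sign but differed by 1.31. Polr1d counted as the same sign because its probe set that was lower with triptolide was not 1 of the 2 compared. A further 13 members rested on 1 detected probe set, among them Polr1b and Rpap3. The RefSeq table also lists pseudogenes named after Polr2d and Rpap3, and whether the probes read them was not tested.

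**Figure D3:**
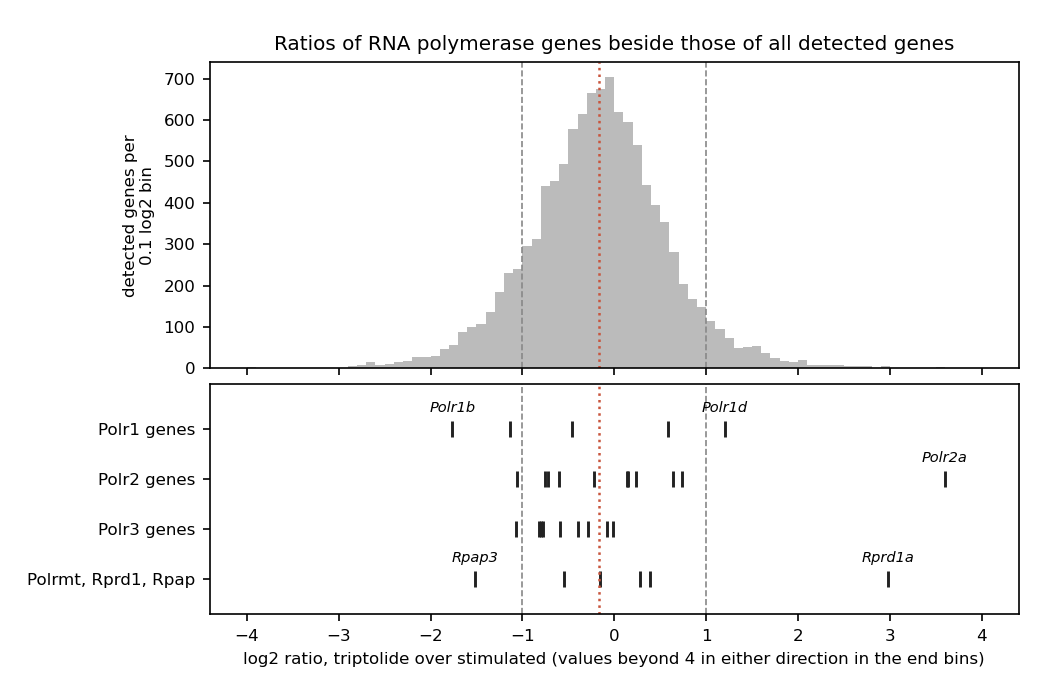
Number of detected genes per 0.1 bin of the log2 ratio, triptolide over stimulated (grey bars, 10968 genes), above the ratios of the 31 members by family (ticks). Dashed lines mark 2-fold and the dotted line the median of all detected genes, -0.16. Polr2a (3.60) and Rprd1a (2.98) lie in the sparse right tail, and all 9 Polr3 ticks lie left of 0 as deposited (7 after median centring).

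The partner genes of the polymerases were compared in lists chosen with earlier results of these data known. Their counts stand beside the shares of all detected genes given above, 5.63% at least 2-fold higher and 12.5% lower. Polymerase I needs the factor SL1, built from the Taf1 proteins, to find its promoter and Rrn3 to be recruited there. Of 7 detected genes of this list, 3 lay at least 2-fold below the stimulated array and 0 above it by that much. The median log2 ratio was -0.55, but -0.09 with a floor 2 times as high and -0.10 among bright genes. The SL1 genes Taf1b (942 to 414, 2.28-fold lower) and Taf1a (252 to 91.4, under the floor with triptolide, at least 2.13-fold lower) went the way of Polr1a and Polr1b. Taf1d went from 1527 to 235 on its brightest probe set (6.49-fold lower), with 6 of 7 probe sets lower by various amounts. A further SL1 gene, Taf1c, had a log2 ratio of 0.55 and Rrn3 of 0.98 (552 to 1092), so the list did not share 1 direction.

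For polymerase III, the list held initiation genes and Maf1, and 1 of its 15 detected genes was past 2-fold downwards and 0 upwards (median log2 ratio -0.26). This was Snapc2, of the complex that starts small nuclear RNA genes, at 3.34-fold lower (1790.4 to 537), and its second probe set was 2.45-fold lower. Maf1, a repressor of polymerase III, had a log2 ratio of -0.67. Of 4 subunits known by other symbols, Znrd1, Twistnb and Cd3eap of polymerase I and Crcp of polymerase III, none was past 2-fold (log2 ratios between -0.46 and 0.43). Among 10 mitochondrial genes 1 was at least 2-fold higher, Polg2, an accessory subunit of the DNA polymerase (418 to 1182, 2.83-fold), and the median was -0.51.

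Among 22 detected kinases, phosphatases and readers of the CTD, 2 were at least 2-fold higher and 3 lower (median -0.04). The readers Scaf4 (281 to 945, 3.36-fold) and Pcf11 (738 to 1581, 2.14-fold), which act at the ends of genes, were higher beside Rprd1a. Scaf4 was also higher on a second probe set (2.73-fold) but not on the last (log2 ratio -0.07), and all 4 of Pcf11 were higher. The kinase module genes Mnat1 (4.23-fold) and Ccnh (2.16-fold) of TFIIH and the Mediator kinase Cdk8 (3.20-fold, 2448 to 764) were lower. Mnat1 and Cdk8 had 1 probe set each. Cdk7, also of that TFIIH module, had a log2 ratio of -0.21 (764 to 660). Ccnc, the cyclin partner of Cdk8, had 0.31 on its brightest probe set, and its detected probe sets ranged from -0.54 to 0.31. Cdk13 and Ctdsp2 had log2 ratios of 0.52 and 0.55 on their brightest probe sets and were not counted as lower. Another probe set of Cdk13 was 4.07-fold lower (896.5 to 220), and others of Ctdsp2 were 2.23-fold and 2.36-fold lower. Scaf8, the paralog of Scaf4, had a log2 ratio of -0.89 (1449.8 to 784) on the brightest probe set, and of 1.26 and 0.37 on the others. Rprd2, another gene of the Rprd family, had -0.05 on the brightest of 5 detected probe sets, which ranged from -2.70 to 0.73. No direction is given for these 2 genes.

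Of 17 detected elongation and pausing genes 1 was at least 2-fold higher and 1 lower (median 0.03). Hexim1, an inhibitor of the elongation kinase P-TEFb, was 2.57-fold and 3.50-fold higher on its 2 probe sets. Larp7, which stabilises the RNA through which Hexim1 acts, was 2.49-fold and 2.02-fold lower. Of 11 detected genes for ubiquitination and rescue of stalled polymerase II, 1 was past 2-fold upwards and 1 downwards (median log2 ratio 0.11). Uvssa, which acts in repair at stalled polymerase II, went from 299 to 825 on its brightest probe set (2.75-fold higher), another being under the floor with triptolide (139 to 61.1). Nedd4, a ubiquitin ligase for the Polr2a product, was 2.39-fold lower (1208 to 505) on its brightest probe set. The others were 1.45-fold (485 to 334) and 1.32-fold (446.5 to 339) lower.

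Among 12 genes of polymerase assembly and import, 1 was past 2-fold upwards and 0 downwards (median log2 ratio -0.23). This was Pdrg1, a prefoldin-like subunit of the complex that also holds Rpap3. It had signals of 407 and 4652 (11.4-fold higher), and a second probe set was 6.66-fold higher, while the other 2, near the floor, had log2 ratios of 0.28 and 0.27. The AAA ATPases of R2TP, Ruvbl1 and Ruvbl2, had log2 ratios of -0.59 and -0.95. Rpap3 and Pdrg1, which sit in 1 complex, thus lay at opposite ends.

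**Figure D4:**
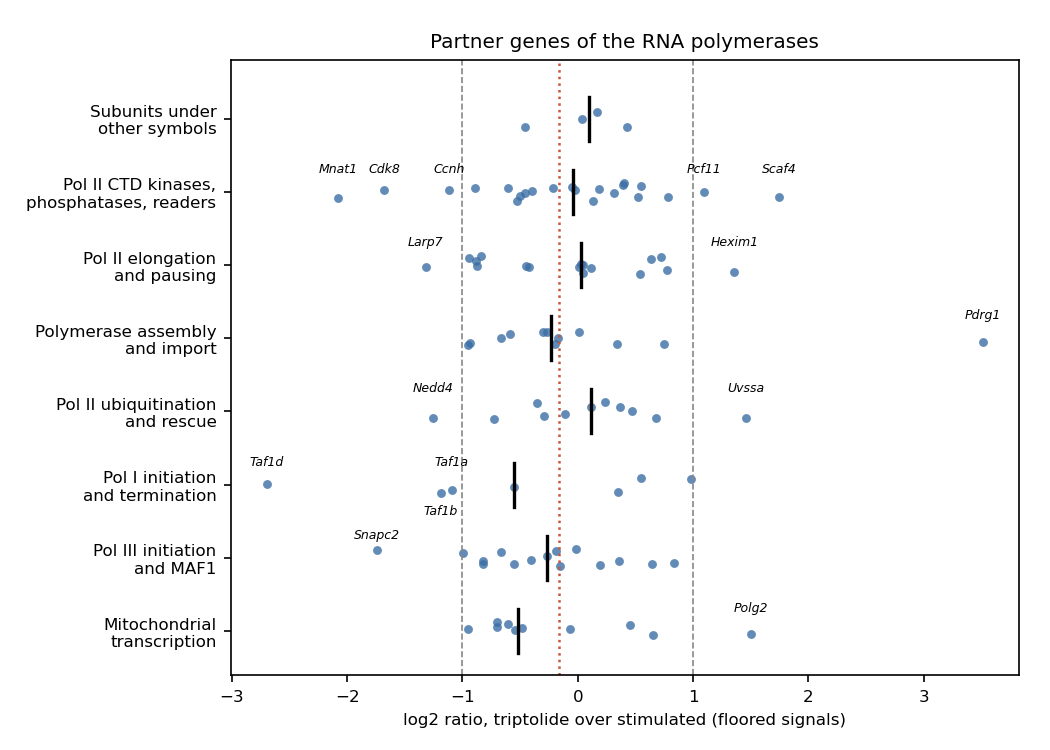
Log2 ratio, triptolide over stimulated, of each detected gene (points, brightest probe set) in 8 lists of polymerase partners, with the list's median as a black bar, 2-fold as dashed lines and the median of all detected genes as a dotted line. Genes past 2-fold are named. Pdrg1 at 3.51 and Taf1d at -2.70 are farthest out.

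The labelled cell type was checked against markers. All 10 T cell markers on the array were above the floor on both arrays, but their summed signal was 52192 without and 36949 with triptolide, and 3 (Cd2, Cd4 and Cd8a) were at least 2-fold lower. Of the 10, 8 had a log2 ratio below 0 and 2 above it, Cd3e (0.46) and Cd3g (0.18). Of other cells, 5 of 7 B cell markers were detected on at least 1 array (sum 1536 and 1412), as were 6 of 11 myeloid (1493 and 1383), 2 of 4 natural killer cell (1889.8 and 2392) and 2 of 7 platelet and erythroid markers (769 and 1445). Each sum is over all markers of that type on the array, including those under the floor. Pax5, Cd14, Itgam, Ncr1, Pf4 and Alas2 were under the floor on both arrays, and no marker was listed at 0. Eomes, listed for natural killer cells, had signals of 1380.5 and 1380.4. At least 2-fold higher were the platelet markers Gp5 (296 to 862) and Itga2b (191 to 407) and the myeloid Lyz2 (72.2 to 259.5). The B cell marker Blnk (306 to 84.1) and the myeloid Mpeg1 (342 to 117) were at least 2-fold lower, under the floor with triptolide. The part of these shifts in the polymerase results was not tested.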

How the data were processed

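Total RNA of 2 samples was labelled with biotin and hybridised to Affymetrix arrays. The deposited values are 1 intensity for each probe set and array, made with MAS5 as the submitters' processing notes say. The sources used here give no MAS5 version or scaling settings. The 2% trimmed mean of the first 100 probe sets was 2000 on both arrays, and that of all probe sets 383 (stimulated) and 339.8 (triptolide), so the scaling may rest on those 100. Above the floor lay 44.9% and 42.2% of probe sets.

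Genes were assigned from the platform annotation, and symbols updated through the RefSeq table of GRCm38.p6 (34741 of 34945 single-gene probe sets matched). Another 932 had several genes, 2 of them including a member, and were left out. The floor was the 95th percentile of 87 chemosensory receptor probe sets, the higher of both arrays. For each gene the probe set of highest mean log2 floored signal was used. Detected means above the floor on at least 1 array, measured on both. Calls are at least 2-fold, with no test. The members and lists were chosen with earlier results of these data known. Every member is named, and of each list the genes past 2-fold or, failing any, the ends of its range; others were picked after their values were seen. Ratios were computed with Python 3.11.15 (pandas 2.3.3) and tested on simulated data. In that test changes were planted only in genes with a mean signal above 4 times the floor. It covers neither changes in dimmer genes nor variation between cultures.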

Additional observations from a re-analysis of the deposited data

How the results depend on the processing

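The counts, median and single ratios of the members and the medians of the lists were recomputed under 10 alternatives: 3 scalings, 4 treatments of low signals, 2 choices of probe sets and a limit to bright genes. The count of members at least 2-fold higher was 3 in all of them, the same genes each time (Polr2a, Rprd1a and Polr1d). That of members at least 2-fold lower was 5 as deposited, 3 after median centring and 2 after quantile normalization, and ranged from 2 to 5; Polr1b and Rpap3 were called lower in all 10. The median of the members ranged from -0.41 to -0.11, beside -0.27 and 0.0050 for all genes under housekeeping scaling and quantile normalization. The median of the polymerase I factor list was -0.55 as deposited. It ranged from -0.82 without probe sets whose names end in _s_at or _x_at to -0.09 with a floor 2 times as high. Among single members, Polr2a had 2.98 and Rprd1a 1.67 as the median over their probe sets, and Polr3f had 0.09 and Rpap2 -0.38 when other probe sets were used. Polr3b had -0.50 and Polr3gl -0.32 with a floor 2 times as high. The limit to bright genes left 24 of 31 members, so the other 7 had 9 alternatives. Promoter matches, markers and second probe sets were not recomputed. No paired analysis was possible because each group has 1 sample, and no replicate could be left out. Signals close to the floor limit the polymerase III genes most.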
